A study of Mus musculus with 2 samples.

Results

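The AP-1 factors are the 8 genes Fos, Fosb, Fosl1, Fosl2, Jun, Junb, Jund and Atf3, taken by their symbols from the gene lists of the deposited single-cell matrices of the embryonic mouse coronal suture. They made up 8 of 31053 listed genes at the embryonic stage E15.5, and 8 of 27998 at the later stage E17.5. The coronal suture is the fibrous joint between the frontal and parietal bones of the skull, where new bone forms at the bone edges. Both samples were wild-type C57/BL6 mouse embryos, and single-cell mRNA was captured at its 3′ end on a 10x droplet platform. The E15.5 sample was a pool of 10 sutures freed with collagenase II and dispase. The E17.5 sample came from 2 litters handled in 3 batches, freed with collagenase IV and sorted for live cells. There was 1 sample per stage, so no test between samples was possible and no p-value is given. Because the sutures were dissociated differently at the 2 stages, levels are compared between clusters within a library and between members, and not between stages.

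The study sorted its osteogenic and mesenchymal cells into 15 labelled clusters, and the matrices held 5335 of these labelled cells from the E15.5 sample and 6830 from the E17.5 sample. EC1 to EC3 are the mesenchyme layers above the bone, EC4 the mesenchyme over the suture, and LIG a ligament-like population. MG1 and MG2 are the periosteal dura under the bone, MG3 the border layer of the dura and MG4 the arachnoid. OG1 are osteoprogenitors, OG2 and OG3 pre-osteoblasts, OG4 osteoblasts, and PO1 and PO2 proliferating osteogenic cells. OG4 held the highest level of Runx2, Sp7, Ifitm5 and Dmp1 in both libraries. Erg, a marker of the osteoprogenitors, was highest in OG1 at E17.5 (86.3 CPM, the field's unit for counts scaled to a common library total) but in MG2 at E15.5 (9.10). Pthlh and Six2, also markers of the osteoprogenitors, were not highest in OG1 in either library. Pthlh was highest in MG2 at E15.5 (47.2 CPM) and MG4 at E17.5 (57.4), and Six2 in MG3 (62.1) and MG2 (85.5). The labelled cells held 48607817 unique molecular identifiers (UMIs, 1 per captured mRNA molecule) at E15.5 and 92585034 at E17.5, with medians of 8510 and 12301 per cell. A total of 42 labelled barcode sequences occurred in both libraries.

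AP-1 is a transcription factor made of 2 proteins of the basic leucine zipper (bZIP) class, usually one of the Fos family and one of the Jun family. Fos proteins cannot pair with themselves and need a Jun partner, whereas Jun proteins can pair with each other. Fos, Fosb, Jun, Junb and Atf3 are immediate early genes: their transcription rises within minutes of growth factors, stretch or stress, the enzymatic freeing of cells included. Jund and Fosl2 are less dependent on such stimuli. In bone, mice without Fos lack osteoclasts, and excess of Fosl1 or of the short form of Fosb increases bone formation.

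The members lie on 7 chromosomes of GRCm38 in the GENCODE vM21 annotation. Fos is at chr12:85473890-85477273 on the plus strand and Fosb at chr7:19302696-19310051 on the minus strand. Jun is at chr4:95049034-95052222 and Junb at chr8:84974484-84978718, both on the minus strand, and Jund is at chr8:70698949-70700616 on the plus strand. Fosl1 is at chr19:5447547-5455946 and Fosl2 at chr5:32135801-32157842, both on the plus strand, and Atf3 at chr1:191170296-191218039 on the minus strand. Jun and Jund consist of a single exon. Genes annotated on the opposite strand overlap Fosl1 (Ccdc85b), Jun (Junos), Junb (Prdx2), Jund (Gm11175) and Atf3 (Gm24748). Whether the counting used strand is not given in the sources used here, so those counts carry that uncertainty.

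The immediate early members Fos, Fosb, Jun and Junb, whose RefSeq and GENCODE starts lie within 30 bases of each other, are shown by the 120 bases before their RefSeq start (GRCm38.p6), 5′ to 3′ on the gene's strand. Capitals mark TGACG (the core of the CREB and ATF site), TGANNTCA (the site of Jun and ATF pairs) and TATAAA (the TATA box).
Fos, chr12:85473770-85473889, plus strand: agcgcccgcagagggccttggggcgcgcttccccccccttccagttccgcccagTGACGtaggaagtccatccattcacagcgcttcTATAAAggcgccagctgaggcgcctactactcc
Fosb, chr7:19310046-19310165, minus strand: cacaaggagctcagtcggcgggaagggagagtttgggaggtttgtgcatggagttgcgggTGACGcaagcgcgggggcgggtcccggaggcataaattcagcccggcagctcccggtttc
Jun, chr4:95052223-95052342, minus strand: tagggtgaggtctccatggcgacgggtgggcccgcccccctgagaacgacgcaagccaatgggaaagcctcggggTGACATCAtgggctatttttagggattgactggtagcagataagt
Junb, chr8:84978749-84978868, minus strand: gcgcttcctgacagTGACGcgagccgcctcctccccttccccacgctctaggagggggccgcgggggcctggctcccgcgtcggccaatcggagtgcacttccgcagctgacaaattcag

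TGACG lay 66 to 62 bases upstream of the Fos start, 60 to 56 upstream of Fosb and 106 to 102 upstream of Junb. The TGANNTCA match of Jun lay 45 to 38 bases upstream, and the TATA box of Fos 33 to 28. Searched on both strands, TGACG was held by 11.7% of 32446 promoter stretches of this length, TGANNTCA by 7.1% and TATAAA by 6.33%. The first 2 motifs can overlap, and a stretch is then counted under both. The AP-1 site TGANTCA, held by 3.41% of stretches, and the CArG box of serum response factor, held by 0.755%, had no match in these windows or in those of the other 3 members with an entry. A match is only a match of letters, and a missing one says nothing beyond this window.

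Fos, the partner best known for its immediate early response, was the most abundant member over all labelled cells, at 1390 CPM at E15.5 and 802 CPM at E17.5. It was highest in the pre-osteoblasts OG3 in both libraries, at 2139 CPM (exact Poisson 95% interval 2060 to 2220) and 1751 CPM (1729 to 1774). These intervals, like all those below, cover counting error only. Among the other osteogenic clusters at E15.5, Fos stood at 1934 CPM in PO1, 1638 in OG4, 1627 in OG2, 1543 in PO2 and 946 in the osteoprogenitors OG1. At E17.5 the same clusters held 1028 CPM in PO1, 1091 in OG4, 728 in OG2, 676 in PO2 and 684 in OG1. OG3 therefore stood apart from its nearest neighbour by non-overlapping intervals in both libraries, and OG1 lay below OG3 in both. OG1 lay below OG2 at E15.5, but at E17.5 the order depended on the barcode suffix. In suffix 1, OG1 held 1236 CPM and OG2 1450, while suffixes 2 and 3 had 642 and 605 in OG1 against 621 and 586 in OG2.

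In the layers above the bone, Fos at E15.5 was 1332 CPM in EC1, 1076 in EC2, 1592 in EC3, 1288 in EC4 and 1235.5 in LIG. At E17.5 the levels were 909.5, 372, 861, 298 and 292 CPM in the same order. EC2 was the lowest of these 5 clusters at E15.5 and EC4 and LIG the lowest at E17.5, with intervals that overlapped for those last 2 clusters. In the meninges Fos at E15.5 was 1164 CPM in MG1, 1667 in MG2, 803 in MG3 and 832 in MG4, and at E17.5 it was 529, 678, 170.0 and 134 CPM. MG3 and MG4 held the lowest 2 levels of all 15 clusters in both libraries. At E15.5, 10 of the 14 neighbouring clusters in the order of Fos overlapped in their intervals, and at E17.5 4 of 14 did.

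**Figure D1:**
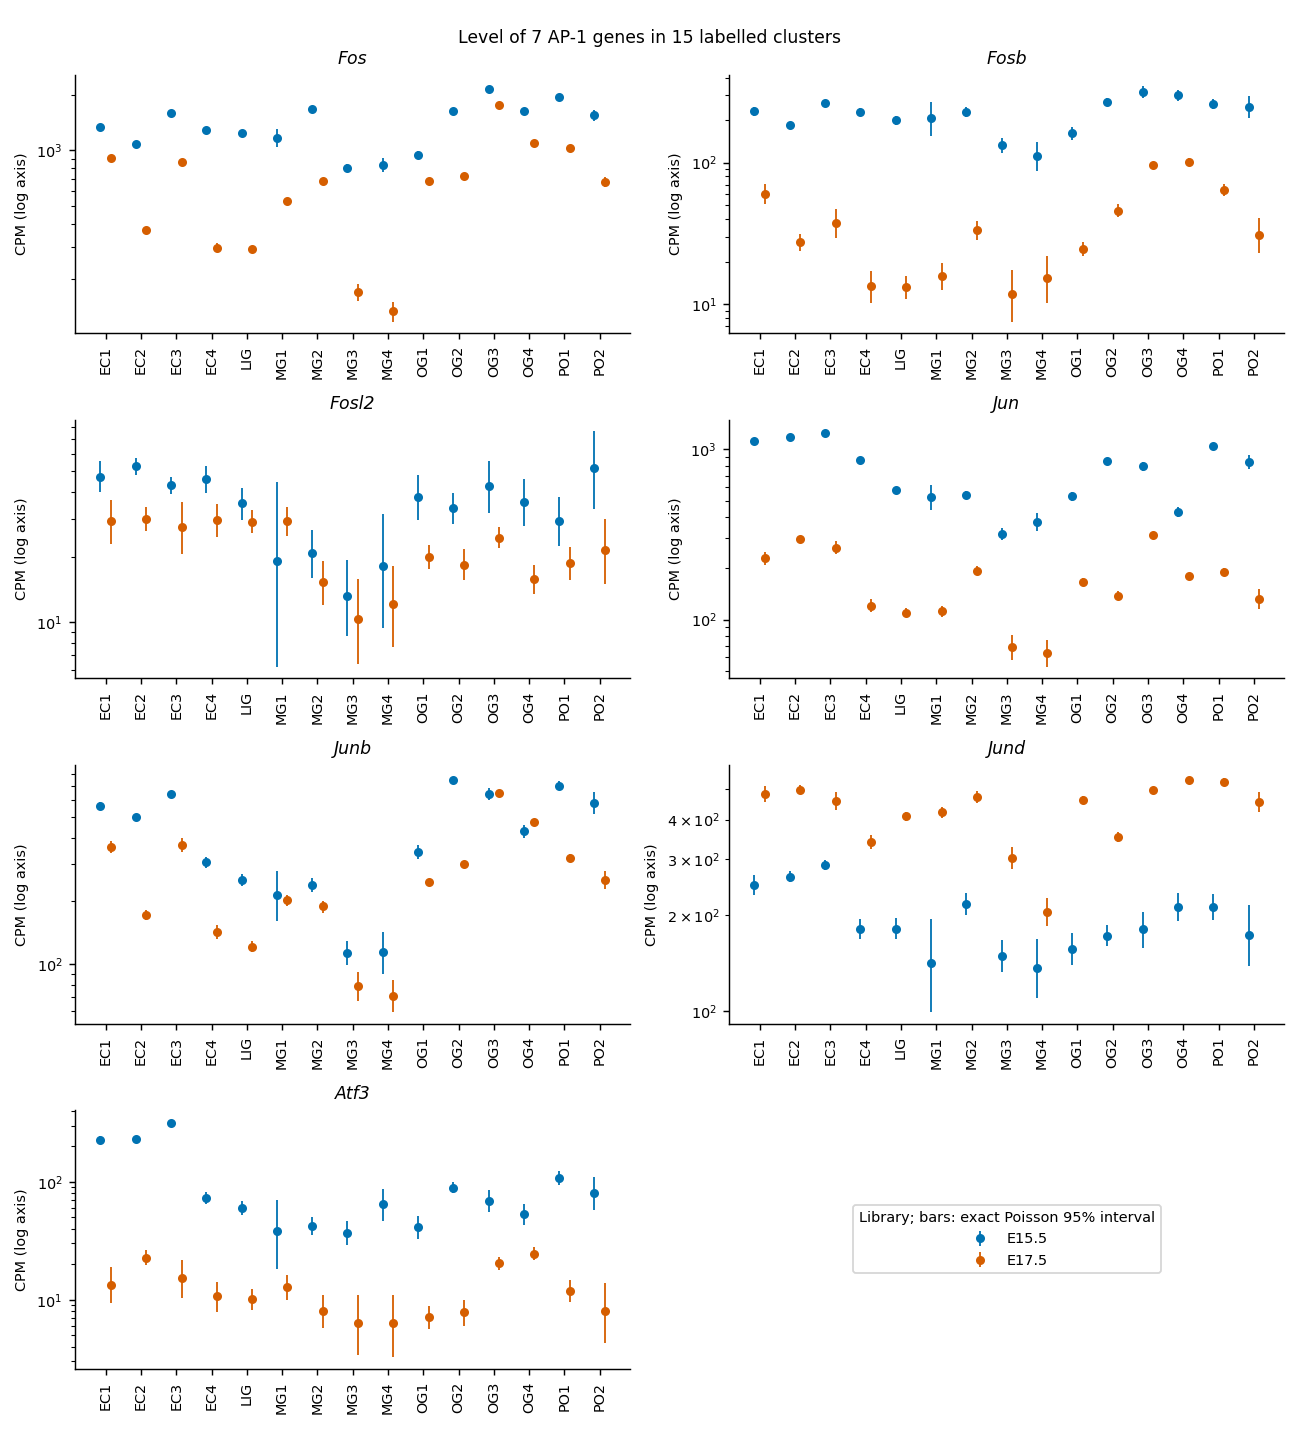
Level of the 7 AP-1 factors other than Fosl1 (CPM, log axis) in the 15 labelled clusters at E15.5 and E17.5, with exact Poisson 95% intervals that cover counting error only. Fos is highest in OG3 in both libraries, at 2139 and 1751 CPM, and the meningeal clusters MG3 and MG4 sit at or near the bottom for most members.

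Fosb, a Fos-family protein whose short form lacks the activating end, followed Fos at a lower level. It was 315 CPM in OG3, 299 in OG4, 269 in OG2 and 266 in EC3 at E15.5, and 111 CPM in MG4 and 133 in MG3 at the low end. At E17.5 it was 101 CPM in OG4, 95.6 in OG3 and 64.1 in PO1, against 11.8 in MG3, 13.1 in LIG, 13.4 in EC4 and 15.3 in MG4. OG3 and OG4 led both libraries with overlapping intervals. None of the 14 neighbours at E15.5 was separated by its interval, and 3 of 14 were at E17.5.

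Fosl1 (Fra-1), the Fos-family member that raises bone formation when overproduced, was almost undetected in the labelled cells, with 33 UMIs at E15.5 and 23 at E17.5. The largest numbers were 8 UMIs in EC2 and 7 in OG2 at E15.5 (1.71 CPM in OG2), and 11 in OG3 at E17.5 (0.854 CPM). No UMI was found in MG1, MG3, MG4, OG1, OG3 and OG4 at E15.5, nor in EC1, MG1, MG3, MG4, OG1 and PO2 at E17.5. A count of 0 allowed up to 11.5 CPM in the 28 cells of MG1 at E15.5, but only 0.251 CPM in the 1010 cells of OG1 at E17.5. Comparisons of Fosl1 between clusters rested on few UMIs, as in OG4 against OG3 at E17.5 with 1 and 11 UMIs (ratio 0.112, interval 0.00259 to 0.768).

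Fosl2 (Fra-2), which has a known part in osteoblast and chondrocyte differentiation, had a pattern of its own among the Fos genes. It was highest in EC2 in both libraries, at 52.7 and 29.9 CPM, and lowest in MG3, at 13.2 and 10.3 CPM. Its other levels were 35.3 to 47.1 CPM in EC1, EC3, EC4 and LIG at E15.5, and 27.4 to 29.6 CPM in those clusters at E17.5. OG3 held 42.5 and 24.5 CPM, and OG4 35.9 and 15.7 CPM. Fosl2 was thus not led by OG3, and none of its neighbours in the order was separated in either library.

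Jun, the founding partner of the Jun family and an activator that can act as a pair with itself, was led by the layers above the bone at E15.5. It stood at 1251 CPM in EC3, 1175.5 in EC2, 1121 in EC1, 866 in EC4 and 580.1 in LIG. The osteogenic clusters held 1045.5 CPM in PO1, 851 in OG2, 845 in PO2, 797 in OG3, 529.9 in OG1 and 427 in OG4. The meningeal clusters were low, at 523 CPM in MG1, 541 in MG2, 318 in MG3 and 375 in MG4.

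At E17.5, Jun was 312 CPM in OG3, 296.5 in EC2, 265 in EC3 and 229 in EC1, of which the first 2 overlapped in their intervals. The others ran from 194 CPM in MG2 through 189.9 in PO1, 179 in OG4, 167 in OG1, 138 in OG2 and 132 in PO2 to 109.9 in LIG. MG3 and MG4 were again the lowest, at 68.6 and 63.7 CPM. EC1 to EC3 therefore stood near the top and MG3 and MG4 at the bottom of the Jun order in both libraries, while the osteoblasts OG4 were near the bottom at E15.5 only.

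Junb, a Jun-family partner known for weaker activation than Jun and for a role in osteoblast proliferation, was led by pre-osteoblasts. At E15.5 it stood at 752 CPM in OG2, 705 in PO1, 643 in OG3, 583 in PO2, 429 in OG4 and 343 in OG1. At E17.5 the order was OG3 at 654 CPM, OG4 at 474, PO1 at 320.2, OG2 at 298, PO2 at 252.5 and OG1 at 245.5. The proliferating cluster PO1 overlapped with OG2 at E15.5, and OG3 stood apart from all clusters at E17.5.

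EC3, EC1 and EC2 held 647, 564 and 501 CPM of Junb in the earlier library, and 369, 360.2 and 171 CPM in the later one. EC4 and LIG were lower, at 305 and 251.5 CPM and at 143 and 121.5 CPM. Its lowest levels were in MG3 and MG4, at 114 CPM in both at E15.5 and at 78.9 and 71.1 CPM at E17.5. Junb had the widest range of the Jun genes: its highest over its lowest cluster of at least 50 cells was 6.60 at E15.5 and 9.20 at E17.5.

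Jund, the Jun-family member with the steadiest expression, was the most even. It ran from 137 CPM in MG4 to 288 in EC3 at E15.5, a ratio of 2.11, and from 205 CPM in MG4 to 532 in OG4 at E17.5, a ratio of 2.60. The median ratio of all 11868 genes with at least 50 UMIs in each library was 3.70 and 3.08. Jund lay at percentile 18.5 of those genes at E15.5 and at 41.0 at E17.5. In their own libraries Fos reached ratios of 2.66 and 13.04 (percentiles 32.9 and 81.6), Fosb 2.83 and 8.58, Jun 3.93 and 4.89, Fosl2 3.98 and 2.91, and Atf3 8.42 and 3.89 (percentiles 71.7 and 59.2). The most uneven of the 7 members above that limit was therefore Atf3 at E15.5 and Fos at E17.5.

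Atf3, a stress-induced bZIP factor that pairs with Jun proteins and mostly represses, was led by EC1 to EC3 at E15.5. These 3 clusters held 228, 230.5 and 313 CPM, against 109 in PO1, 89.5 in OG2, 80.6 in PO2, 73.0 in EC4 and 68.8 in OG3. The remaining 7 clusters held 37.1 CPM (MG3) to 64.7 CPM (MG4). EC3 was separated from EC2, and EC1 from PO1, and no other neighbours were.

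At E17.5 Atf3 was 24.6 CPM in OG4, 22.8 in EC2, 20.4 in OG3, 15.2 in EC3 and 13.4 in EC1, and 6.3 to 12.7 CPM in the other clusters. No neighbours were separated. EC2 was among the leading clusters in both libraries, while OG4 and OG3 were high at E17.5 only. The ranks of the 15 clusters in the 2 libraries correlated least for Atf3 (Spearman coefficient 0.414, n = 15 clusters). The coefficient was 0.832 for Fosb, 0.804 for Fos, 0.761 for Junb, 0.711 for Fosl2 and 0.643 for both Jun and Jund. The clusters were defined on both libraries together, and each point pools cells of 1 library.

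To place the members against other genes, each cluster was compared with all other labelled cells of its library, and a gene was called where the ratio was at least 2, or at most 0.5, in both libraries. Over all genes tested, 1.89% of the pairs of a gene and a cluster were called higher and 5.83% lower. Fosl1 was under the count limit, so 7 of 8 members gave 105 pairs, of which 0 were called higher and 10 lower (9.52%). For single genes the background was 20.7% with a higher cluster and 31.8% with a lower one, against 0 of 7 and 5 of 7 members. In a pair, the other labelled cells include the clusters most like the one compared, and the clusters came from the same cells, so the counts are descriptions.

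Of the 10 pairs, 8 were in the inner meningeal layers. In MG3, 4 of 7 members were called lower against 8.13% of all genes. Junb stood at 0.227 and 0.252 of the other cells there at E15.5 and E17.5, Jun at 0.334 and 0.360, Fosl2 at 0.322 and 0.452, and Atf3 at 0.222 and 0.452. In MG4, 4 of 7 were called lower against 5.67%, with Junb at 0.232 and 0.227, Jun at 0.401 and 0.334, Fosb at 0.485 and 0.318, and Atf3 at 0.397 and 0.449.

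Fos itself was not called there, because at E15.5 its ratios of 0.568 in MG3 and 0.595 in MG4 missed the limit, while those at E17.5 were 0.208 and 0.164. Jund in MG4 stood at 0.603 and 0.449. All 7 members were below 1 in both clusters and both libraries. Their median ratios were 0.334 and 0.360 in MG3 and 0.449 and 0.334 in MG4, where the medians of all genes were 0.914 and 0.954 in MG3 and 0.941 and 1.05 in MG4.

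Other measures also set MG3 and MG4 apart. The 5 endothelial markers summed to 82.9 and 114 CPM in MG3 and MG4 at E15.5, and to 104 and 134 CPM at E17.5. The other clusters held 8.26 to 34.9 and 12.1 to 26.9 CPM. MG3 or MG4 held the highest level of 2 of the 5 markers in the earlier library and of 3 in the later one, and none was at 0 over the labelled cells. These were Cdh5 (up to 82.8 and 81.3 CPM) and Egfl7 (27.1 and 60.6 CPM), with Emcn in the later library. Pecam1 was highest in EC2 and EC1, Kdr in MG2 in both libraries, and Emcn in OG1 in the earlier library. The myeloid markers summed to 64.6 CPM in MG3 at E15.5, against at most 60.8 elsewhere. In MG4 at E17.5 the mast cell markers summed to 31.1 CPM, against at most 24.8, and the neuron markers to 5.79, against at most 4.52. In the other library each of these 3 lists lay within the range of the other clusters. The 6 glia markers summed to 35.3 CPM in MG4 at E17.5, mostly Fabp7 (30.5 CPM), with 2.45 CPM in MG3 and at least 2.47 and at most 6.198 CPM elsewhere. At E15.5 they summed to 2.54 and 3.01 CPM in MG3 and MG4, within the 0.979 to 8.50 CPM of the others. The median mitochondrial share was 2.48% and 2.57% in MG3 and MG4 at E15.5, with 3.24% in OG4 and 1.41% to 2.23% elsewhere, and it was 2.91% and 2.89% at E17.5, with 1.86% to 2.60% elsewhere. Their median depths of 9388 and 9400 UMIs in the earlier library and 11987 and 8905 in the later one lay within the range of the other clusters. The part of these measures in the low AP-1 levels was not tested.

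The other 2 pairs were Junb in LIG, at 0.495 and 0.370 (3.49% of all genes called lower in LIG), and Atf3 in OG1, at 0.246 and 0.477 (4.31%). The ratio of Junb in LIG was 0.572 at E15.5 when the other 14 clusters were weighted equally, which ended that call. Atf3 in OG1 was the least stable pair: it was called in 5 of 11 alternative settings, while Junb in MG3 was called in all 11.

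No member was called higher in both libraries. In single libraries, 1 of 105 pairs was at least 2-fold higher at E15.5 (5.04% of all pairs) and 4 were at E17.5 (4.61%). The ratio of Fos in OG3 to the other labelled cells was 1.56 in the earlier library and 2.70 in the later one. Junb in OG3 stood at 1.33 and 2.60, Fosb in OG3 at 1.39 and 2.41, and Fosb in OG4 at 1.33 and 2.49. Atf3 in EC3 stood at 2.63 and 1.10, and in EC2 at 1.58 and 1.74. With a limit of 1.5-fold, 2 pairs were called higher, Fos in OG3 and Atf3 in EC2 (4.63% of all pairs), and 23 lower (10.5%).

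**Figure D2:**
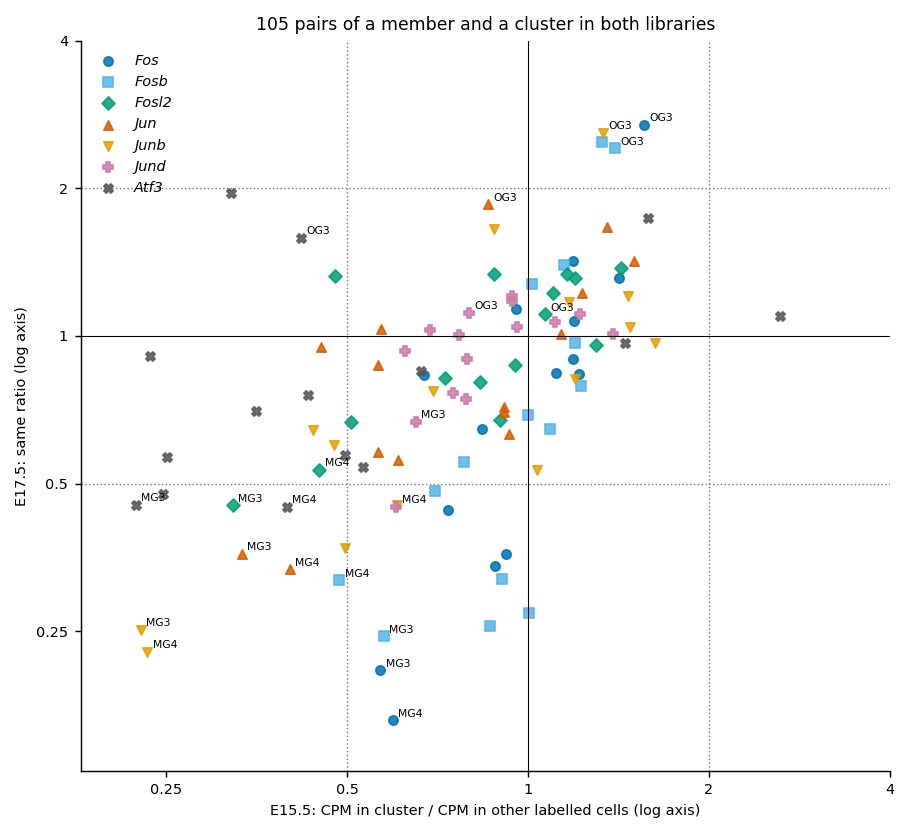
Ratio of each AP-1 factor in each cluster to all other labelled cells of its library, at E15.5 on the x axis against E17.5 on the y axis (log axes, dotted lines at 0.5 and 2, MG3, MG4 and OG3 named). MG3 and MG4 are below 1 for all 7 members in both libraries, down to 0.164 for Fos in MG4 at E17.5, and Fos in OG3 reaches 1.56 and 2.70.

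Direct comparisons of neighbouring populations placed the change along the osteogenic clusters. From the osteoprogenitors OG1 to the pre-osteoblasts OG3, Fos was 2.26 times higher at E15.5 (95% interval 2.13 to 2.40) and 2.56 times at E17.5 (2.50 to 2.63). The E17.5 ratios pool 3 barcode suffixes with unlike Fos levels. Within each suffix, Fos in OG3 was more than 2-fold that in OG1, but by less than the pooled 2.56. Of all genes, 1.28% were at least 2-fold higher in both libraries. Fosb was 1.95 and 3.90 times higher and Junb 1.88 (1.69 to 2.08) and 2.66 (2.55 to 2.78) times, so neither reached the limit at E15.5. Jun was 1.504 and 1.86 times higher, Fosl2 1.12 and 1.23 times, and Jund 1.15 and 1.07 times. Atf3 was 1.67 (1.22 to 2.30) and 2.87 (2.24 to 3.71) times higher. The step was thus narrowest for Jund and Fosl2 in both libraries.

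From OG3 to the osteoblasts OG4, Fos stood at 0.77 of its OG3 level in the earlier library and 0.62 in the later one, Jun at 0.54 and 0.58, and Junb at 0.67 and 0.72. Fosl2 stood at 0.85 and 0.64, Fosb at 0.95 and 1.05, Atf3 at 0.77 and 1.20, and Jund at 1.18 and 1.07. Against OG2, the other pre-osteoblast cluster, OG3 held 1.31 times the Fos level at E15.5 (1.26 to 1.37) and 2.40 times at E17.5 (2.34 to 2.48). This Fos ratio was below the pooled 2.40 within each E17.5 suffix, and below 2-fold in suffix 1. Jun and Junb in OG3 were 0.937 and 0.856 of OG2 at E15.5 but 2.26 and 2.19 times OG2 at E17.5.

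In the meninges, the periosteal dura MG2 exceeded the dural border MG3 at least 2-fold in both libraries for Fos (2.08 and 3.99) and Junb (2.097 and 2.39), where 3.40% of all genes did. Jun was 1.70 and 2.82 times higher in MG2, and Atf3 1.14 and 1.26 times with intervals that held 1. Above the bone, EC3 exceeded LIG at least 2-fold in both for Jun (2.16 and 2.41) and Junb (2.57 and 3.04), where 4.00% of all genes did. Atf3 was 5.20 times higher in EC3 than in LIG at E15.5 and 1.51 times at E17.5, the latter with an interval of 0.965 to 2.30. EC4 held 0.83 to 1.49 times the LIG level for the 7 members in both libraries, and none reached the 2-fold limit.

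The makeup of AP-1 differed between clusters as well as its amount. Each UMI stands for 1 captured 3′ end and is not divided by gene length, so members are set beside each other within a library as captured molecules. Whether capture differed between the genes was not tested. Fos made up 40.2% of the UMIs of the 8 members at E15.5 and 43.8% at E17.5. Jun made up 26.8% and 10.3%, Junb 14.1% and 16.8%, Jund 6.5% and 24.6%, Fosb 6.6% and 2.6%, Atf3 4.7% and 0.8%, and Fosl2 1.2% and 1.2%. The summed level ran from 1568 CPM in MG3 to 4400 in EC3 at E15.5, and from 508 CPM in MG4 to 3354 in OG3 at E17.5.

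Fos was the most abundant member in 14 of 15 clusters at E15.5, with Jun ahead in EC2, and in 10 of 15 at E17.5. At E17.5 Jund led in EC2, EC4, LIG, MG3 and MG4. The share of Fos was lowest in EC2 (30.9%) and highest in MG2 (56.4%) at E15.5, and ran from 26.2% in MG3 to 52.2% in OG3 at E17.5. The share of Jund ran from 4.3% in OG3 to 9.5% in MG3 at E15.5, where Fos took 51.1% and 51.2% in those clusters, and from 14.8% in OG3 to 46.8% in MG3 at E17.5. MG3 thus had the largest share of Jund and OG3 the smallest in both libraries.

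The UMIs of the 3 Jun genes over those of the 4 Fos genes ran from 0.520 in MG2 to 1.48 in EC2 at E15.5, and from 0.780 in OG3 to 2.35 in MG3 at E17.5. Within the Jun genes, Junb over Jun was lowest in MG4 (0.305) and highest in OG4 (1.00) at E15.5, and lowest in EC2 (0.577) and highest in OG4 (2.64) at E17.5. Osteoblasts therefore had the most Junb per Jun in both libraries. Fosb over Fos varied little at E15.5, from 0.134 to 0.183, and more at E17.5, from 0.0298 to 0.114.

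**Figure D3:**
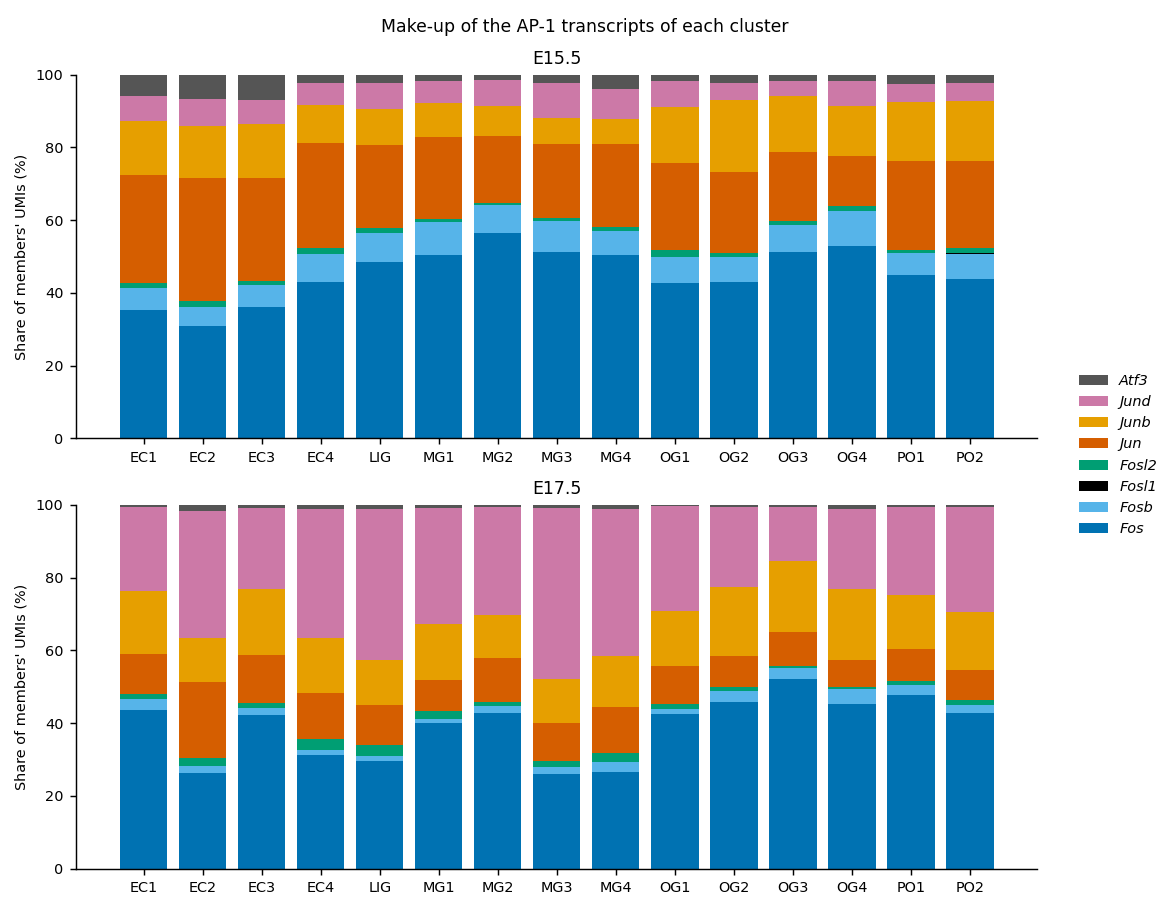
Share of each AP-1 factor among the UMIs of the 8 members (percent, stacked bars from 0 to 100) in the 15 clusters at E15.5 and E17.5. Fos takes 40.2% and 43.8% over all labelled cells, and Jund takes up to 46.8% in MG3 at E17.5.

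To see whether a level came from all cells of a cluster or from some of them, each cell was thinned at random to 3000 UMIs, and shallower cells were left out. In OG3, 91.0% of cells held a Fos UMI at E15.5 and 75.7% at E17.5. At E15.5 the share ran from 74.2% in MG4 and OG1 to 97.1% in PO2, which held only 35 cells. At E17.5 it ran from 34.7% in MG4 to 76.5% in OG4. Jund was found in 44.6% to 74.8% of cells at E17.5.

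The median number of UMIs of the 8 members per thinned cell ran from 3 in MG4 to 11 in EC3 at E15.5, and from 1 in MG3 to 7 in OG3 at E17.5. Cells of OG3 at E17.5 spread widely, with a 10th percentile of 1 and a 90th of 23 UMIs. At least 10 UMIs were held by 41.9% of OG3 cells at E17.5 and 55.6% at E15.5, and by 0% of MG3 and MG4 cells at E17.5. Both Fos and Jun were found in 79.7% of EC3 cells and 38.7% of MG4 cells at E15.5, and in 37.9% of OG3 cells and 3.64% of MG3 cells at E17.5.

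Free RNA gives some of these UMIs. Barcodes with more than 50% haemoglobin UMIs, which are mostly red blood cells that lack a nucleus or lose it, served as a measure of it. There were 4576 such barcodes at E15.5 and 182 at E17.5, with medians of 416 and 584.5 other UMIs. A Fos UMI was found in 47.9% and 44.5% of them. The shares of 34.7% in MG4, 38.2% in MG3 and 44.3% in EC4 at E17.5 were below that. Those cells were thinned to 3000 UMIs, but the barcodes were not (median of 8517 UMIs at E17.5, haemoglobin included). The shares of cells and barcodes were thus taken at unlike depth, and those of the cells are not read as expression above free RNA. As CPM of the barcodes' other UMIs, Fos stood at 1374 and 1017 in the 2 libraries, where labelled cells held 1406 and 803 on the same scale.

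The other members were also found in these barcodes. Jun was 853 and 251 CPM against 936 and 188 in labelled cells, Junb 639 and 441 against 492 and 308, and Jund 199 and 359 against 228 and 452. Fosb was 279 and 67.8 CPM against 230.5 and 47.4, and Atf3 234 and 47.5 against 163 and 13.9. At E15.5, Fos in EC1, EC2, EC4, LIG, MG1, MG3, MG4 and OG1 lay under the level of these barcodes. At E17.5 that level was 1017 CPM with an interval of 861 to 1193, from 150 UMIs. Only OG3 lay above the interval. OG4 and PO1 were above the level but inside the interval. EC1 was below the level but inside the interval, and EC3 at its lower edge. All clusters other than OG3, OG4 and PO1 lay under the level. The lowest of them were MG4 (134 CPM) and MG3 (170.0 CPM). The part of free RNA in the cluster levels was not tested.

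**Figure D4:**
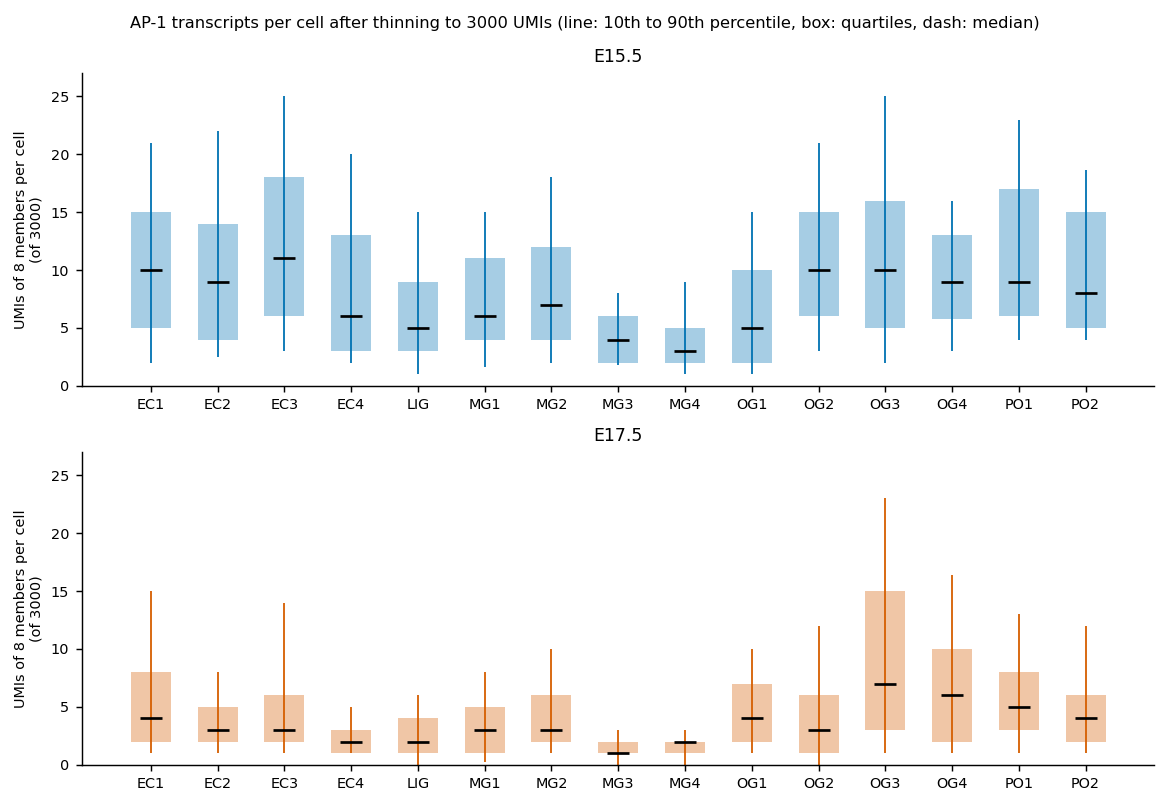
UMIs of the 8 AP-1 factors per cell after thinning to 3000 UMIs, by cluster and library, with the median (dash), the quartiles (box) and the 10th to 90th percentiles (line). OG3 at E17.5 has a median of 7 and a range of 1 to 23, while MG3 at E17.5 has a median of 1.

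Over the thinned cells of a cluster, members correlated weakly to moderately. The median Spearman coefficient over clusters of at least 100 cells (12 and 14 clusters in the 2 libraries) was 0.437 and 0.115 for Fos and Jun, 0.393 and 0.2501 for Fos and Fosb, and 0.381 and 0.396 for Fos and Junb. In OG3 at E17.5 the coefficient of Fos and Junb was 0.658, the highest among the clusters for that pair. Fos and Jund had medians of 0.126 and 0.0992, and Jun and Atf3 0.228 and 0.0468. Cells of a cluster share a library and, at E17.5, come from 3 capture suffixes, so the coefficient describes these cells and sparse counts lower it.

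The E17.5 barcodes carry 3 suffixes (1234, 2770 and 2826 labelled cells), which are parts of the 1 sample and are not matched to batches or litters in the labels. Fos in OG3 was 2785, 1458 and 1367 CPM in suffixes 1, 2 and 3, and OG3 was the highest cluster in all 3. Suffix 1 held the highest Fos of the 3 in 13 of the 14 clusters it contained, at a median of 1.94 times the mean of the others. The same held for Fosb in 13 clusters (1.56 times) and for Junb in 12 (1.75 times).

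Jun was highest in suffix 1 in 4 clusters (1.02 times) and Jund in 5 (0.957 times), with Atf3 in 8 (1.34 times) and Fosl2 in 9 (1.21 times). Suffix 1 was therefore high for Fos, Fosb and Junb but not for Jun and Jund. Against the other cells of the same suffix, Fos in OG3 stood at 2.66, 2.49 and 2.41, and Junb in MG3 at 0.216, 0.167 and 0.284. Fosb in MG4 stood at 0.968 in suffix 1, where MG4 had 7 cells, and at 0.270 and 0.326 in the others, so that pair was lost there. Other called pairs were above 0.5 in 1 suffix, namely Jun and Atf3 in MG3 in suffix 2 (0.554 and 0.823), and Fosl2 in MG3 and Atf3 in MG4 in suffix 3 (0.552 and 0.585). Atf3 in OG1 was above 0.5 in suffixes 1 and 2 (0.683 and 0.520).

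**Figure D5:**
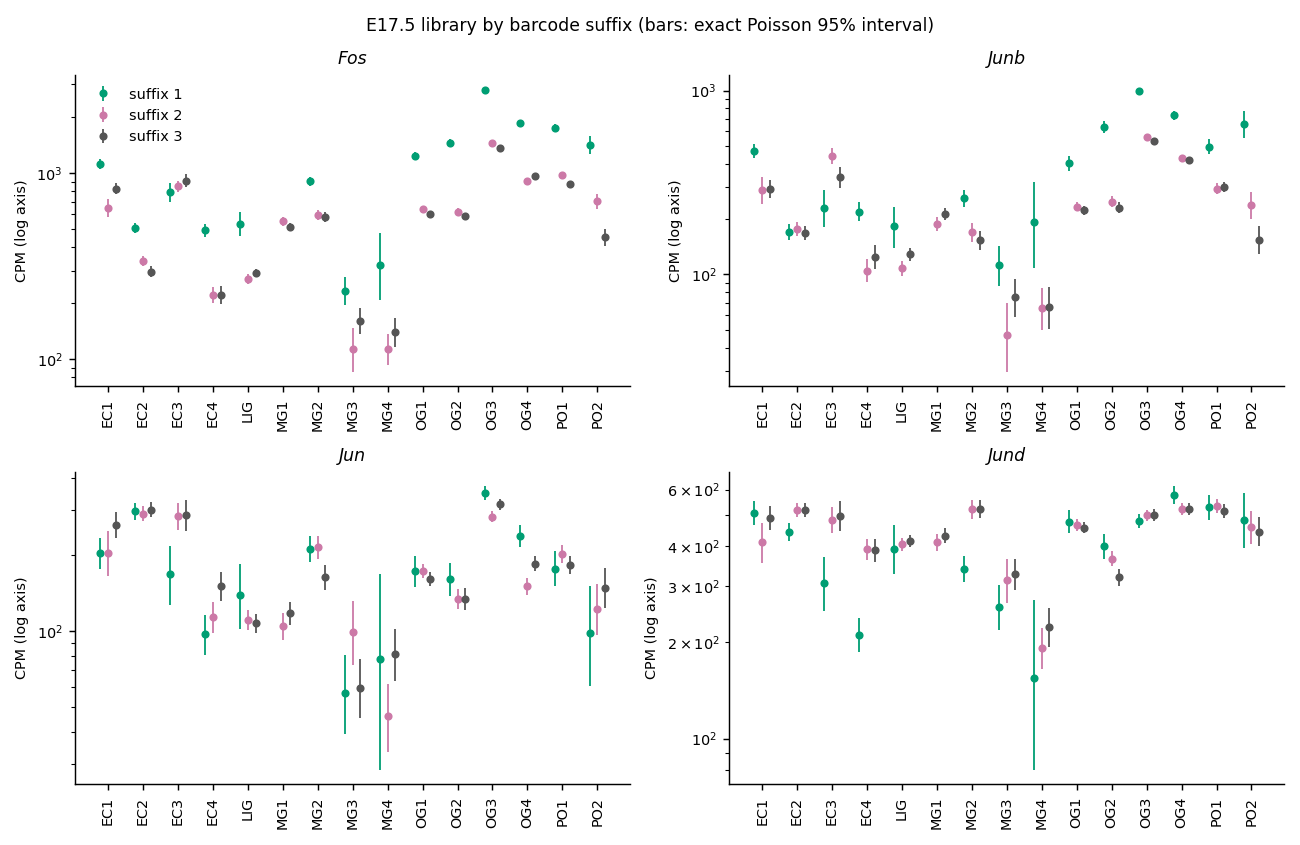
Level of Fos, Junb, Jun and Jund (CPM, log axis, exact Poisson 95% intervals) by cluster in the later library, drawn for each of its 3 barcode suffixes. Fos in OG3 is 2785, 1458 and 1367 CPM in suffixes 1, 2 and 3, while Jun and Jund in suffix 1 lie near the other suffixes.

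The genes most like each member were taken by the lower of the 2 libraries' Pearson r of log2(CPM + 10) over the 15 clusters, among 7333 genes with at least 500 UMIs in each library. For Fos they were Socs3 (r of 0.799 at E15.5 and 0.816 at E17.5), Ier3 (0.797 and 0.825) and Nr4a1 (0.782 and 0.886). For Fosb they were Socs3 (0.827 and 0.837), Zfp36 (0.825 and 0.910) and Egr1 (0.804 and 0.796). These are 5 distinct genes, all of them in the list of other immediate early genes.

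Jun was most like Egr1 (0.875 and 0.844), Cd44 (0.828 and 0.825) and Nr4a1 (0.827 and 0.789). Junb was most like Ier2 (0.931 and 0.963), Egr1 (0.910 and 0.935) and Nr4a1 (0.978 and 0.893). Jund was most like Dusp1 (0.785 and 0.789), Ehd4 (0.713 and 0.756) and Uap1 (0.761 and 0.705). Outside that group, Fosl2 was most like Dlc1 (0.872 and 0.819), Eng (0.849 and 0.777) and Meis2 (0.857 and 0.760), and Atf3 most like Ascc3 (0.766 and 0.777), Dhrs7 (0.914 and 0.750) and Rras2 (0.764 and 0.747).

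Among the members, r was 0.937 and 0.870 for Fos and Fosb, 0.759 and 0.977 for Fos and Junb, 0.826 and 0.785 for Jun and Junb, and 0.840 and 0.710 for Jun and Atf3. Fos and Fosl2 had 0.412 and 0.281. With the summed other immediate early genes, Fos had 0.683 and 0.745 and Jun 0.870 and 0.906. With the summed heat shock genes, the other common response to stress, r was 0.0923 and 0.208 for Fos, 0.429 and -0.0465 for Jun, and 0.180 and -0.361 for Atf3. The 15 points of each r share a library and its depth.

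Lists of related genes were counted by the same rule as the members, beside the 1.89% higher and 5.83% lower of all pairs. Of 18 other immediate early genes 17 were tested, and 2 of their 255 pairs were higher (0.784%) and 16 lower (6.27%). The higher ones were Egr2 in OG3 (68.0 and 19.8 CPM), a zinc finger factor, and Zfp36 in OG4, which destabilises mRNA. Zfp36 was lower in MG3 and MG4, and Egr2 in MG4. Klf4, a zinc finger factor with its highest levels in EC3 at E15.5 (835 CPM) and EC2 at E17.5 (576 CPM), was lower in MG2, OG1 and PO2, and Maff, a small Maf protein, in MG3 and OG4.

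In MG3, 0 and 1 of the 17 genes were above the other labelled cells in the 2 libraries, and in MG4 none was in either. In OG3, 11 and 15 of the 17 were. EC3, with 15 and 10 genes above, and EC1, with 14 and 13, were also mostly above. By the 2-fold rule, 6 of 17 genes were called lower in MG3, against 8.13% of all genes, and 6 of 17 in MG4, against 5.67%. In OG3, 1 of 17 was called higher, against 0.725% of all genes.

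The 11 heat shock genes, all tested, had 0 higher and 2 lower of 165 pairs (1.21%), the latter Hspb1 and Hspa1b, both in OG4. The kinases and serum response factors upstream of AP-1, with 11 of 13 tested, had 1 higher (Mapk3 in MG4) and 1 lower (Srf in MG3) of 165.

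Of 27 other bZIP factors 23 were tested, with 5 higher (1.45%) and 18 lower (5.22%) of 345 pairs. Creb5, an ATF2-like factor that binds the cyclic AMP response element, was higher in EC2 and EC3, with 295 and 215 CPM in EC2, and lower in 8 clusters. Maf, a large Maf factor, was higher in MG2, with 238 and 177 CPM. Nfe2l2, the regulator of the oxidative stress response, was lower in LIG and OG4.

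Of 12 textbook AP-1 targets 11 were tested, with 10 higher (6.06%) and 77 lower (46.7%) of 165 pairs. The higher pairs were led by the bone matrix genes Ibsp, Bglap and Bglap2 in OG4, and by Spp1 in OG3 and OG4. Several of these genes mark osteoblasts and helped to define the clusters, so these counts are not independent of the labels.

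The matrices also held cells outside the labelled clusters, of which 2875 and 1937 passed the study's limits on cells. They were clustered without the AP-1 genes and named from markers, by a rule settled after the clusters were seen. Chondrocytes-like cells (721 and 319 cells) held more Fos than any labelled cluster, at 4330 CPM (4286 to 4375) and 3646 CPM (3580 to 3712). They held 1164 and 509 CPM of Fosb, 1930 and 1474 of Jun, 1600 and 2271 of Junb, 379 and 180.1 of Atf3, and 107 and 32.7 of Fosl2. Fosl1 reached 17.04 CPM there in the earlier library and 1.85 in the later one. Jund, at 259 and 534 CPM, was close to the labelled clusters. At E17.5, 197 of the chondrocytes-like cells formed a cluster led by Clu and Prg4, with 4247 CPM of Fos and 2727 of Junb. The other 122 formed a cluster led by Matn3 and Ucma, with 2954 and 1747 CPM. A cluster of 241 cells led by Prg4 at E15.5 (3666 CPM of Fos) stayed unnamed. The chondrocytes-like values therefore pool unlike cells in the 2 libraries.

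Pericytes-like cells (192 and 174 cells) held 2191 and 1757 CPM of Fos, and 1061 and 1074 of Jun. Myeloid-like cells (396 and 482 cells) held 1217 and 2117 CPM of Fos, 1229 and 1460.2 of Junb, and 538 and 425 of Atf3. Atf3 was higher in these myeloid-like cells than in any labelled cluster in both libraries. Osteoclasts-like cells (184 and 140 cells) held 626 and 1200.0 CPM of Fos with 203 and 206 of Jun, and their Fosl2 of 126 and 107 CPM was above that of every labelled cluster.

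Endothelial-like cells (44 and 119 cells) held 888 and 624 CPM of Fos. Mast-like cells (340 and 33 cells) held 395 CPM of Fos and 379 of Jun in the earlier library, and 2036 and 2419 CPM in the later one. At E17.5, 32 glia-like cells held 2812 CPM of Fos, and 97 neurons-like cells held 493 CPM of Fos and 206 of Jun. At E15.5 a cluster of 86 cells with 5 glia markers up stayed unnamed, since 2 mesenchyme markers were up as well. The clusters that stayed unnamed (998 and 541 cells) ran from 661 to 3666 CPM of Fos at E15.5 and from 522 to 2500 at E17.5.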

How the data were processed

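The deposited matrices hold UMI counts per gene and barcode, made by the authors with Cell Ranger on mm10 (the E15.5 header names version 3.1.0, the methods an earlier one). The submitters' processing notes also name FastQC 0.11.7, MultiQC 0.9 and Seurat 3.2.0. Cluster labels and UMI counts per cell came from the authors' composite cell table. For E17.5 the counts per cell equalled that table, and for E15.5 they did not (medians of 8510 and 11513), and 5 of 5340 labelled cells were missing. The authors' composite expression table was not used here.

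UMIs were summed per cluster and library and divided by all UMIs (CPM), with exact Poisson intervals. Genes with at least 50 UMIs in each library were the background (11868). All 8 members are named, with the 3 genes most like each and at most 4 per list, those with the most pairs past 2-fold. The members, lists and rules were chosen with earlier results of these data known. The rule for naming unlabelled clusters was changed after they were seen. It asked for at least 20 cells and at least 3 markers 2-fold up. It also asked for a marker among the 10 leading genes, or else for at least 80% of the markers. In the latter case no name was given where at least 2 mesenchyme markers were up or the cells were shallow. Nor was one given where another type had more markers among the leading genes. Unlabelled cells had at least 1000 UMIs and 1000 genes, at most 7.5% mitochondrial and at most 3% haemoglobin UMIs. Of the labelled E15.5 cells, 93 lay outside these limits. They were clustered by Leiden (2000 variable genes, 30 components, 30 neighbours, resolution 1). Doublets were kept, and cells over a Scrublet percentile were left out as an alternative. Labelled barcodes shared between E17.5 suffixes numbered 7, 5 and 13. The steps were tested on simulated data. Scanpy 1.11.5, scipy 1.17.1 and numpy 2.4.6 were run under Python 3.11.15, with figures from matplotlib 3.10.9. RefSeq promoter entries matched 7 of 8 members.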

Additional observations from a re-analysis of the deposited data

Results flagged for a closer look

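Atf3 differed in direction between the libraries in the later osteogenic clusters. In OG3 its ratio to the other labelled cells was 0.419 at E15.5 (95% counting interval 0.336 to 0.516, 89 UMIs) and 1.59 at E17.5 (1.38 to 1.82, 263 UMIs). In OG4 the ratio stood at 0.320 at E15.5 (0.259 to 0.391, 96 UMIs) and at 1.96 at E17.5 (1.70 to 2.25, 258 UMIs). These differences between the libraries were not tested, since each stage is 1 sample and the sutures were dissociated differently.

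Some unlabelled clusters that could not be named held at least 2 times the highest level of any labelled cluster of their library. At E15.5, a cluster of 241 cells led by Prg4, Cldn11, Tac1 and Gdf5 held 1145 CPM of Fosb (highest labelled cluster 315), 189 CPM of Fosl2 (52.7) and 1603 CPM of Junb (752). A cluster of 86 cells led by Msmo1, Krt8 and Insig1 held 799 CPM of Fosb. At E17.5, a cluster of 92 cells led by Aldh1a2, Fmo1 and Ntrk2 held 703 CPM of Jun (highest labelled cluster 312), 1367 CPM of Junb (654) and 58.5 CPM of Atf3 (24.6). A cluster of 75 cells led by H2-Aa, Cd209a and S100a8 held 1991 CPM of Junb and 345 CPM of Atf3. It carried 3 myeloid markers and those of no other type, but did not meet the naming rule. At E15.5 a cluster of 150 cells led by H2-Aa and S100a8 was named myeloid-like, with 1226 CPM of Junb and 476 of Atf3. The myeloid-like levels therefore include such cells at E15.5 only.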

How the results depend on the processing

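No paired analysis was possible because each stage is 1 sample and no result comes from a test. At a limit of 1.5-fold, by construction, 2 of 105 pairs were higher and 23 lower in place of 0 and 10. Over all genes, 4.63% of pairs were higher and 10.5% lower at that limit. The other immediate early genes had 11 higher and 49 lower of 255 pairs, and the heat shock genes 7 and 8 of 165. The upstream factors had 3 and 5 of 165, and the other bZIP factors 18 and 38 of 345. The AP-1 targets had 19 higher of 165 pairs, and 77 were lower already at the 2-fold limit. With the share of cells after thinning in place of CPM, 4 of the 10 lower pairs were called, and the cause was not tested. All 10 stayed called with the stated limits on cells, with cells of at least 3000 UMIs, without 204 and 340 labelled cells of high doublet score, and with genes matched by Ensembl identifier. Of the 10, 8 were kept with the mean of per-cell values, 8 with mitochondrial, haemoglobin and ribosomal genes out of the denominator, 8, 7 and 8 in E17.5 suffixes 1, 2 and 3 alone, and 7 with equal weight to all clusters. Fos in OG3 moved from 1.56 to 1.67 (per-cell mean) and 1.70 (denominator) at E15.5, and from 2.70 to 2.93, 2.80, 2.49 (suffix 2), 2.41 (suffix 3) and 2.90 (equal weights) at E17.5. Its share of OG3 cells at E17.5 was 71.3% at 2000 UMIs, its share of the members at E15.5 40.6% with per-cell means, and its level in chondrocytes-like cells at E15.5 4083 CPM at resolution 0.6. No value changed side of 1 where it had been called. The cause of these moves was not tested. The intervals cover counting error, not the spread between embryos.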
